A study of Mus musculus with 12 samples.

Results

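Tfap2a, Tfap2c, Gata2, Gata3, Tead4 and Elf5 encode transcription factors that act in trophoblast, the outer lineage that builds the placenta, and in surface ectoderm, the layer that becomes epidermis. The 6 genes were chosen by symbol, out of 55487 genes in the deposited count matrix, and all 6 were found there. They were followed by RNA-seq in 12 libraries made from mouse embryonic stem (ES) cells that were female and of a C57BL6/CAST hybrid strain, whose parental chromosomes can be told apart where their sequences differ. The 4 groups of 3 libraries were wild type at day 0, SIRT7-KO at day 0, wild type at day 7 and SIRT7-KO at day 7. SIRT7 is a nuclear protein deacylase of the sirtuin family. By the protocol in the labels, day 0 cells were in leukaemia inhibitory factor (LIF), a cytokine that keeps mouse ES cells undifferentiated, and day 7 cells had it withdrawn. A separate treatment label conflicts with this, since it reads LIF for 3 libraries and None for 3 at day 0, and the same at day 7, following replicate and genotype. Groups below are therefore those of genotype and day, and the LIF status of each library cannot be settled from the labels. The labels name no clone, passage or parental line, and do not say whether replicates were separate cultures, so p-values measure only the spread between these libraries.

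As background, TEAD4 is the DNA-binding partner of the Hippo pathway coactivators YAP and TAZ, and in the mouse embryo it acts upstream of Cdx2 and Gata3 in the trophectoderm. GATA2 and GATA3 are zinc finger factors of trophoblast, blood progenitors and several epithelia. AP-2α (Tfap2a) and AP-2γ (Tfap2c) bind GC-rich sites and work in trophoblast, surface ectoderm and neural crest, and AP-2γ also works in primordial germ cells. ELF5 is an ETS-domain factor that, with CDX2 and EOMES, keeps trophoblast stem cells in their state, and its promoter is known for being methylated in ES cells.

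Library totals ran from 25190483 to 69079368 reads assigned to genes. Sirt7 itself, the targeted gene, stood higher in the libraries labelled knockout. Its level was 10.3 ± 2.34 CPM (read counts scaled to TMM library sizes; mean ± SD, n = 3) in wild type and 19.96 ± 3.49 in knockout at day 0, and 12.01 ± 2.81 and 23.0 ± 2.63 at day 7. The groups did not overlap on either day, and the difference did not pass the test after adjustment (edgeR quasi-likelihood test, adjusted p = 0.182 and 0.299). Which part of the gene was deleted is not given in the sources used here, so this level does not check the labels, and each direction between genotypes below is that of the libraries labelled knockout against those labelled wild type. The ES cell identity at day 0 was checked by 12 naive pluripotency genes, whose summed level was 6200 to 6762 CPM over the 6 day 0 libraries and 455 to 519 CPM over the 6 day 7 libraries. Zfp42 and Nr0b1 had the largest falls of that list.

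Of the 4 genes with RefSeq promoter windows, sequences are shown for 3. The Gata3 window lies within annotated exons and is shown because it lies at the start that took most Gata3 reads. Those of Gata2 and Elf5 lie outside annotated exons, at starts that took few or no reads. Each window covers 250 to 11 bases before a RefSeq start (GRCm38.p6), is written 5′ to 3′ on the gene's strand, and has its CG dinucleotides in capitals. The first is that of Gata3 on chromosome 2, minus strand, chr2:9878611-9878850. The second lies before the upstream start of Gata2 on chromosome 6, plus strand, chr6:88193641-88193880. The third lies before the start of the Elf5-201 transcript on chromosome 2, plus strand, chr2:103423818-103424057.
Gata3: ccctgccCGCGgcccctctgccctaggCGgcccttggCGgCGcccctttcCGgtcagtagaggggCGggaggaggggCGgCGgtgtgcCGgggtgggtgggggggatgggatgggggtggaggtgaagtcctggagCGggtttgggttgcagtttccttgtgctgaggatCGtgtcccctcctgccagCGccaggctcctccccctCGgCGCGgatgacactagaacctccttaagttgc
Gata2: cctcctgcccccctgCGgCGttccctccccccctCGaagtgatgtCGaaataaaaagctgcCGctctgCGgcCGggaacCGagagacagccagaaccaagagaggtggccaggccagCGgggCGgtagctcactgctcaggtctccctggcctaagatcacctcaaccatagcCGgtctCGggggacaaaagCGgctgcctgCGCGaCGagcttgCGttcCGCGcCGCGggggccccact
Elf5: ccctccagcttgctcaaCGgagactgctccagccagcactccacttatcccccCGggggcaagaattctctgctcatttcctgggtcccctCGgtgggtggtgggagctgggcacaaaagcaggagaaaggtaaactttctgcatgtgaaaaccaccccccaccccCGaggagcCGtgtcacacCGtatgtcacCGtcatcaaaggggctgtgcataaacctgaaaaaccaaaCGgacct
The Gata3 window held 16 CG, the Gata2 window 21 and the Elf5 window 8, where the median over 32851 windows of the same length was 5. The windows were searched on both strands for an AP-2 motif (GCCNNNGGC), a TEAD motif (GGAATG) and GATA motifs (AGATAA or AGATAG or TGATAA or TGATAG). No matches of different kinds overlapped. The Gata3 window held 3 AP-2 matches, at 246 to 238, 231 to 223 and 221 to 213 bases before the start, and 13.0% of all windows held at least 1. The printed Gata2 and Elf5 windows held none of the motifs, and 12.2% of all windows held the TEAD motif and 25.9% a GATA motif. The other windows overlap exons and are not printed. Of these, the one before a downstream RefSeq start of Gata2 at 88198664 held 1 AP-2 match (222 to 214 bases before that start) and 1 TEAD match (120 to 115). That window lies downstream of 88198334, where the Gata2-201 transcript starts, and the sequence before 88198334 was not searched. The one before an upstream start of Elf5 at 103412098 held 1 TEAD match (173 to 168) and 1 GATA match (218 to 213), and those before 2 starts of Tfap2a held none. The Gata3 window also lies within an exon of Gm13256, an antisense gene on the other strand that had 0 reads in all libraries.

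From day 0 to day 7, Gata3, Gata2, Tead4 and Tfap2a were higher and Tfap2c was lower, in wild type and in the libraries labelled knockout. Elf5 was close to absent throughout. Of the 6 genes, 5 passed the filter on low counts, out of 19235 genes tested. In wild type 4 of these 5 were called higher and 1 lower (edgeR, adjusted p up to 0.05), where 32.9% of all tested genes were called higher and 32.1% lower. In knockout the same 4 genes were higher and Tfap2c was lower, where 31.1% of tested genes were called higher and 32.3% lower. Most tested genes thus changed over 7 days, and a call by itself does not set a gene apart. The share of all tested genes whose libraries of the 2 days did not overlap was not counted, so that trait, given below, does not set a gene apart either. The median log2 difference of the 5 genes was 1.297 in wild type and 1.26 in knockout, and over all tested genes it was 0.0095 and -0.024.

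**Figure D1:**
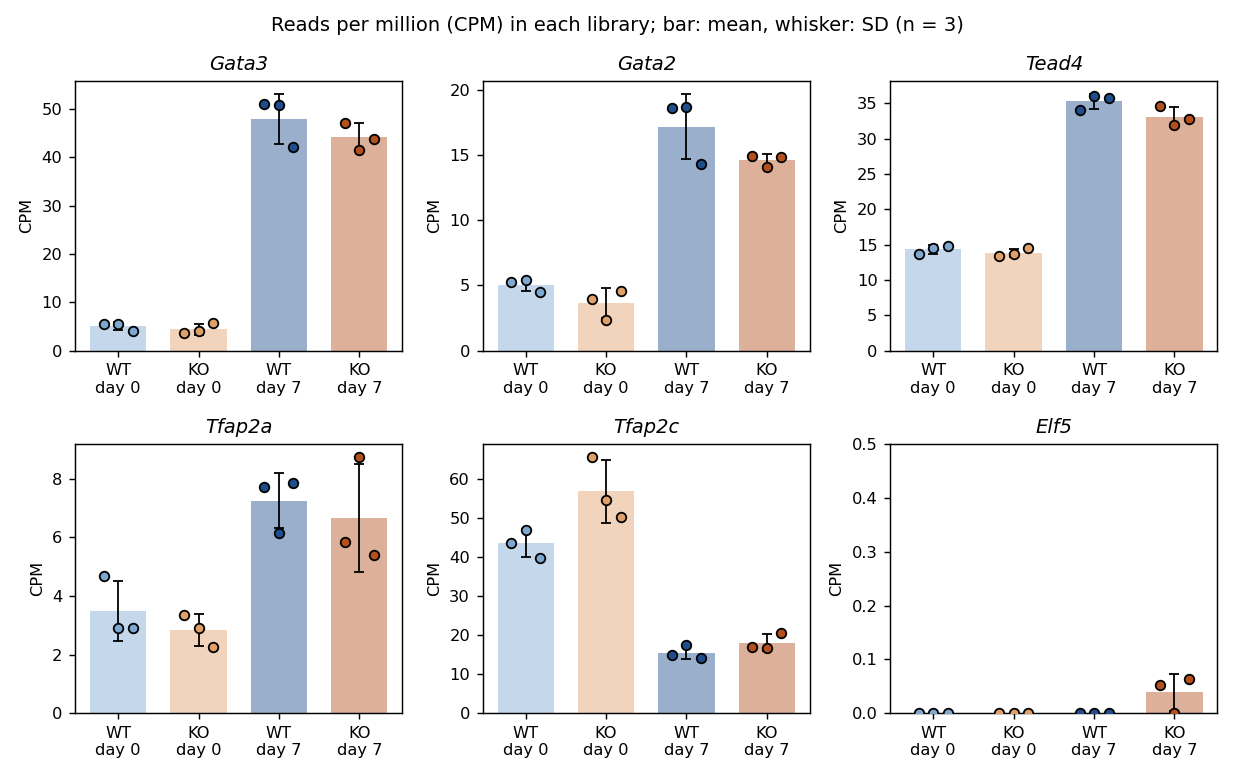
Level of each of the 6 genes in CPM (vertical axis, linear, from 0) in the 12 libraries. Points are libraries, bars are group means and whiskers are SD (n = 3); Gata3, Gata2, Tead4 and Tfap2a stood higher at day 7, Tfap2c stood lower, and Elf5 had reads in 2 knockout libraries of day 7 only.

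Gata3 (chromosome 2, 9857078 to 9890034, minus strand, GENCODE M21 on GRCm38) changed most. Wild type libraries gave 5.51, 5.51 and 4.06 CPM at day 0 and 51.0, 50.9 and 42.0 CPM at day 7. In the libraries labelled knockout it was 3.58, 3.97 and 5.69 CPM at day 0 and 47.2, 41.6 and 43.9 CPM at day 7. Every day 7 library stood far above every day 0 library, while the genotypes overlapped on both days. The rise was 9.53-fold in wild type (log2 3.25, SE 0.19, edgeR adjusted p = 7.28e-08) and 9.97-fold in knockout (log2 3.32, SE 0.19, edgeR adjusted p = 6.90e-08). Of all tested genes, 7.99% rose by more than Gata3 in wild type and 7.66% did in knockout. A gene on the same strand, 9230102O04Rik, shares 77 exonic bases with Gata3 and held 119 reads over all libraries, beside 12067 of Gata3.

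Gata2 (chromosome 6, 88193891 to 88207032, plus strand) rose less than Gata3 by its fitted value, and that difference between genes was not tested. Wild type libraries held 5.23, 5.41 and 4.52 CPM at day 0 and 18.6, 18.7 and 14.3 CPM at day 7. Those labelled knockout held 3.99, 2.35 and 4.58 CPM at day 0 and 14.9, 14.1 and 14.8 CPM at day 7. The days did not overlap in either genotype. The rise was 3.40-fold in wild type (log2 1.76, SE 0.22, edgeR adjusted p = 3.09e-05) and 3.99-fold in knockout (log2 1.996, SE 0.22, edgeR adjusted p = 1.32e-05).

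Tead4 (chromosome 6, 128224288 to 128300823, minus strand) varied little between replicates, with an SD of 0.586 to 1.41 CPM in the 4 groups. Its level was 13.7, 14.6 and 14.8 CPM in wild type at day 0 and 34.1, 36.1 and 35.7 CPM at day 7. In knockout it was 13.4, 13.7 and 14.5 CPM at day 0 and 34.7, 32.0 and 32.7 CPM at day 7. Both genotypes thus moved from one narrow range to another. The rise was 2.46-fold in wild type (log2 1.297, SE 0.09, edgeR adjusted p = 2.84e-07) and 2.39-fold in knockout (log2 1.26, SE 0.09, edgeR adjusted p = 3.85e-07).

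Tfap2a (chromosome 13, 40715302 to 40738376, minus strand) rose in both genotypes. In wild type it stood at 4.67, 2.90 and 2.92 CPM at day 0 and at 7.72, 6.16 and 7.86 CPM at day 7. In knockout it stood at 3.34, 2.91 and 2.27 CPM at day 0 and at 5.84, 8.75 and 5.39 CPM at day 7. The days were apart in both genotypes, though the nearest libraries of the 2 days in wild type were 4.67 and 6.16 CPM. The rise was 2.08-fold in wild type (log2 1.05, SE 0.26, edgeR adjusted p = 0.00444) and 2.35-fold in knockout (log2 1.23, SE 0.27, edgeR adjusted p = 0.00183). Exons of 3 antisense genes overlap Tfap2a. They held 64, 8 and 1 reads over all libraries beside 2196 reads of Tfap2a, and without a stated use of strand in counting these could not be told apart.

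Tfap2c (chromosome 2, 172549593 to 172558622, plus strand) was the one gene of the 6 that fell. Wild type libraries held 43.6, 47.0 and 39.8 CPM at day 0 and 15.1, 17.4 and 14.1 CPM at day 7. Those labelled knockout held 65.7, 54.5 and 50.1 CPM at day 0 and 17.1, 16.7 and 20.6 CPM at day 7. Every day 0 library was above every day 7 library, and at day 0 all 3 knockout libraries were above all 3 of wild type. Tfap2c fell by 1.48 on the log2 scale in wild type (SE 0.14, edgeR adjusted p = 3.05e-06) and by 1.65 in knockout (SE 0.14, edgeR adjusted p = 1.36e-06). In wild type 17.2% of all tested genes fell by more, and in knockout 15.6% did.

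Elf5 (chromosome 2, 103411688 to 103450989, plus strand) had 0 reads in 10 of 12 libraries. Knockout libraries of day 7 held 2, 0 and 2 reads, or 0.0403 CPM over the group (95% exact Poisson interval 0.011 to 0.103, counting error only). A count of 0 allows up to 0.0312 CPM in wild type at day 0, 0.0309 CPM in knockout at day 0 and 0.022 CPM in wild type at day 7 (3 counts over the group). These limits lie within the interval of the knockout group at day 7. That overlap is no test, and a difference of Elf5 between groups was not tested. All 4 reads were assigned to Elf5-206, which starts at 103411688, and none to Elf5-201, whose upstream window is printed above.

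**Figure D2:**
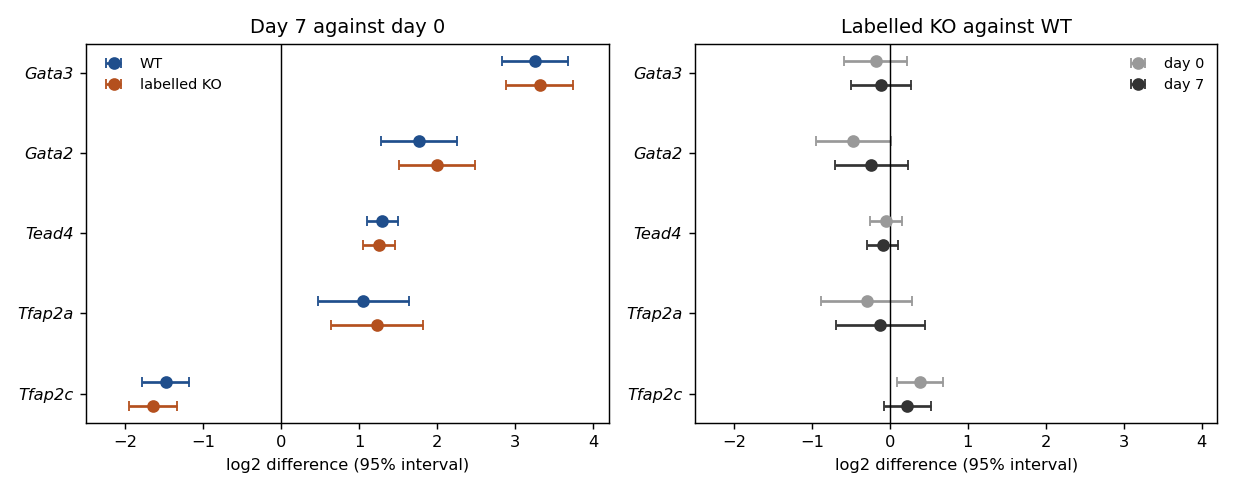
Log2 difference (horizontal axis) of the 5 tested genes with its 95% interval from the edgeR fit, for day 7 against day 0 in each genotype (left) and for libraries labelled knockout against wild type on each day (right). All 10 intervals of the left panel lie away from 0, with only those of Tfap2c below it, and 9 of the 10 in the right panel include 0.

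Between genotypes 0 of the 5 tested genes were called at day 0 and 0 at day 7 by edgeR, where 0.13% and 0.026% of all tested genes were called. DESeq2 also called 0 on each day, and at an unadjusted p under 0.05 edgeR gave 1 gene at day 0 and 0 at day 7. The 1 gene was Tfap2c at day 0, higher in knockout by 0.38 on the log2 scale (95% interval 0.085 to 0.683, edgeR adjusted p = 0.314). Its day 0 groups did not overlap, as was true of 15.7% of all tested genes at day 0 (19.5% at day 7). At day 7 its difference was 0.22 (interval -0.082 to 0.521, edgeR adjusted p = 0.738) and the groups overlapped. Gata3, Gata2, Tead4 and Tfap2a were all lower in knockout on both days by the fitted value, and none of these differences passed the test. The interval of Gata2 at day 0 ran from -0.953 to 0.016, that of Gata3 from -0.591 to 0.225 and that of Tfap2a from -0.885 to 0.289. Tead4 had the narrowest, -0.250 to 0.149 at day 0 and -0.288 to 0.106 at day 7. The widest, those of Tfap2a, leave room for a change of more than 0.8 log2 units at day 0.

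The change over 7 days did not differ detectably between genotypes. The interaction, the change in knockout minus that in wild type, was called for 0 of 5 genes by edgeR and by DESeq2, with 0 at an unadjusted p under 0.05, where 0.026% of all tested genes were called. Its 95% interval was -0.495 to 0.626 for Gata3, -0.440 to 0.904 for Gata2, -0.322 to 0.240 for Tead4, -0.641 to 0.993 for Tfap2a and -0.589 to 0.260 for Tfap2c.

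Levels of different genes were compared per length, as transcript abundance corrected for length and depth (TPM), computed from the transcript counts. At day 0 in wild type the order was Tfap2c at 20.1 ± 1.65 TPM, Tead4 at 7.72 ± 0.13, Gata2 at 2.38 ± 0.47, Gata3 at 2.29 ± 0.76, Tfap2a at 1.70 ± 1.09 and Elf5 at 0 (SD, n = 3). Gata2, Gata3 and Tfap2a did not differ from each other beyond their spread. In knockout at day 0 the means were 27.4 ± 6.10 TPM for Tfap2c, 7.65 ± 0.69 for Tead4, 1.83 ± 0.37 for Gata3, 1.80 ± 0.64 for Gata2, 1.11 ± 0.30 for Tfap2a and 0 for Elf5. At day 7 the order was Gata3 at 24.5 ± 2.1 TPM, Tead4 at 22.8 ± 0.77, Tfap2c at 10.4 ± 0.39, Gata2 at 8.06 ± 0.90, Tfap2a at 4.64 ± 1.3 and Elf5 at 0. Gata3 and Tead4 overlapped there, at 22.2 to 26.3 and 21.9 to 23.4 TPM. The order of means in the libraries labelled knockout was the same on day 7, with Gata3 at 24.5 ± 1.42, Tead4 at 22.9 ± 0.61, Tfap2c at 11.8 ± 1.99, Gata2 at 7.50 ± 0.42, Tfap2a at 5.45 ± 1.76 and Elf5 at 0.027 ± 0.024 TPM.

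**Figure D3:**
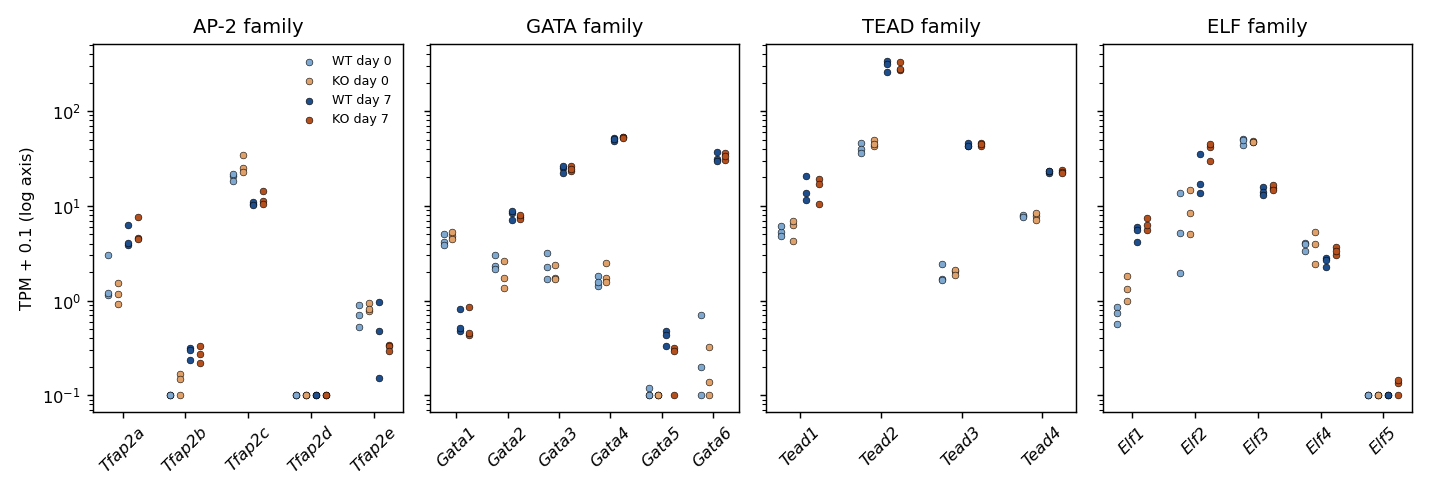
TPM plus 0.1 (log axis) of the AP-2, GATA, TEAD and ELF family genes in each library, coloured by group. In group means at day 7, Gata4 and Tead2 stood above Gata2, Gata3 and Tead4, as did Gata6 and Tead3 with the transcript lengths plotted here, and Elf5 and Tfap2d lie at the bottom of the axis.

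Among relatives of the 6 genes, Gata4 and Tead2 had higher mean levels at day 7 than any of the 6, whichever length was used. Gata4 and Gata6, which act in primitive endoderm and mesoderm, went from 1.5 ± 0.20 and 0.232 ± 0.321 TPM in wild type at day 0 to 50.1 ± 2.0 and 32.4 ± 3.84 TPM at day 7. The erythroid factor Gata1 went the other way, from 4.28 ± 0.61 to 0.504 ± 0.187 TPM. Each of these 3 was called in both genotypes by edgeR. With the union of exons as length, Gata6 at day 7 was 22.3 TPM and Tead3 26.4 TPM in wild type, both below the 28.4 TPM of Gata3, so their order against Gata3 turns with the length used. Among the TEAD genes Tead2 went from 40.7 ± 4.98 to 304 ± 40.3 TPM and Tead3 from 1.81 ± 0.43 to 43.9 ± 2.20 TPM in wild type, both called higher in both genotypes. Tead1 was not called in either genotype, with 5.27 ± 0.66 TPM at day 0 and 15.2 ± 4.67 at day 7. Its log2 difference in counts was of the opposite sign, -0.60 (SE 0.47).

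The other AP-2 genes were scarce. Tfap2d had 0 reads in all 12 libraries, and Tfap2e stood at 0.609 ± 0.185 TPM in wild type at day 0 and 0.434 ± 0.415 at day 7. Tfap2e was called lower in knockout and not in wild type (edgeR adjusted p = 0.0198 and 0.245), and its interaction was not called (edgeR adjusted p = 0.877). The knockout call was lost in 3 alternatives, among them without replicate 2 (edgeR adjusted p = 0.0510) or replicate 3 (0.0600) of day 7. Tfap2b, a neural crest and kidney factor, had 0 reads in wild type at day 0 and 17, 40 and 12 at day 7, and was called higher in wild type (edgeR adjusted p = 0.00513). In knockout, where 0, 8 and 9 reads at day 0 met 5, 23 and 6 at day 7, it was not called (edgeR adjusted p = 0.392), and its interaction was not called either (edgeR adjusted p = 0.599). In the ELF family Elf3, an epithelial factor, fell from 48.2 ± 3.79 to 14.1 ± 1.36 TPM in wild type and Elf1 rose from 0.624 ± 0.152 to 5.12 ± 0.99 TPM. Both were called in both genotypes. Elf4 was called lower in both, though in knockout the call was lost in 10 of 13 alternatives, among them without any one knockout library other than replicate 3 of day 0 (edgeR adjusted p from 0.0527 to 0.195). Elf2 was called higher in knockout and not in wild type (edgeR adjusted p = 0.0481 and 0.109), its interaction was not called, and the knockout call was lost with RLE scaling (0.0521) and without any one knockout library other than replicate 2 of day 0 (0.0580 to 0.141).

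Partners and regulators were followed in lists by family. Over all tested genes 32.9% were called higher and 32.1% lower in wild type, and 31.1% and 32.3% in knockout. Each list count over 7 days, here and below, stands beside these shares, and no list was tested as a set. Of 25 genes of the TEAD and Hippo pathway list, 20 rose and 3 fell in each genotype, with a median log2 difference of 2.05 in wild type and 1.58 in knockout. Those that rose include the coactivator genes Yap1 (log2 1.31, SE 0.28 in wild type) and Wwtr1, which encodes TAZ (1.61, SE 0.19). The known YAP and TEAD targets Ccn1 (4.34, SE 0.09) and Ccn2 (2.76, SE 0.44) rose as well. Other genes of the list also called higher in both genotypes were Lats1, Lats2, Stk3, Sav1, Mob1a, Mob1b, Amot, Amotl1, Amotl2 and Vgll4. Those called lower in both were Vgll1, Wwc1 and Nf2. Activity of the pathway was not tested. Of 11 genes of the GATA list, which holds the cofactors Zfpm1, Zfpm2, Tal1, Lmo2 and Ldb1, 8 rose and 2 fell in wild type, and 9 rose and 2 fell in knockout, with medians of 1.76 and 1.996. Of 10 tested genes of the AP-2 list, 5 rose and 3 fell in wild type and 5 rose and 4 fell in knockout, with medians of 1.11 and 0.89. Of 10 tested ELF and ETS relatives, 3 rose and 5 fell in wild type and 4 rose and 5 fell in knockout, with medians of -0.73 and 0.028. Between genotypes none of these 4 lists had a called gene on either day.

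Genes of trophoblast stem cells and trophectoderm moved in both directions. Of 14 such genes, all tested, 10 rose and 4 fell in each genotype, with a median of 3.10 in wild type and 2.74 in knockout. Their summed level was 234 to 287 CPM in wild type and 383 to 516 CPM in knockout at day 0, and 5018 to 5855 CPM and 4498 to 4668 CPM at day 7. Most of the day 7 sum came from the keratin pair Krt8 and Krt18, with means of 2611 and 2005 CPM in wild type. Cdx2, the trophectoderm factor that partners Elf5 in trophoblast stem cells, went from 0.189 ± 0.050 to 84.4 ± 6.63 CPM in wild type (log2 8.79, SE 0.33). Krt18, a keratin of simple epithelia, started from 13.5 ± 2.0 CPM. The largest falls were those of Sox21, from 11.9 ± 4.79 to 0.566 ± 0.071 CPM, and of Esrrb, which is also a naive pluripotency gene, from 43.8 ± 9.26 to 3.37 ± 0.46 CPM. Esrrb was the gene of this list that was called between genotypes. It was higher in the libraries labelled knockout at day 0 (231 ± 74.5 CPM, log2 2.40, SE 0.22, edgeR adjusted p = 0.00147), and its interaction was called too (log2 -2.92, SE 0.32, edgeR adjusted p = 0.0152). The day 0 call was lost with only the libraries compared in the fit (edgeR adjusted p = 0.0884). The interaction call was lost with the replicate block (0.0716), with the block within genotype (0.280) and without knockout replicate 3 of day 7 (0.0580).

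Genes of differentiated trophoblast and placenta were split. Of 23 listed, 13 were tested, of which 5 rose and 6 fell in wild type and 6 rose and 5 fell in knockout, with medians of 0.053 and 0.69. Their summed level was 372 to 421 CPM in wild type and 289 to 363 CPM in knockout at day 0, and 5463 to 5948 CPM and 4863 to 4986 CPM at day 7. The sum rested mainly on Peg10, an imprinted placental gene (315 CPM at day 0 and 3618 CPM at day 7 in wild type), and on Hand1. Hand1, a factor of trophoblast giant cells that is also expressed in extraembryonic and lateral mesoderm, went from 2.47 ± 0.40 to 1945 ± 119 CPM in wild type. Plac1, a placental gene, had 0, 0 and 3 reads in wild type at day 0 and 1375, 2231 and 864 at day 7. The largest falls were those of Rhox6 and Rhox9, members of a multigene homeobox cluster. How reads shared between copies were counted was not examined. In contrast the prolactin genes Prl3d1, Prl3b1 and Prl2c2, the spongiotrophoblast gene Tpbpa and the syncytin gene Synb had 0 reads in all 4 groups, as Elf5 did in 3 of them. Ctsq and Ctsj of the list also had 0 reads in all groups. Others of the list that did not pass the filter had some reads. These were the other syncytin gene Syna in all 4 groups, Psg17 at day 7 in both genotypes and Psg21 at day 7 in wild type. Gcm1 passed the filter and was not called in either genotype.

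Surface ectoderm and epidermis genes were mixed as well. Of 23 listed, 20 were tested, of which 9 rose and 7 fell in wild type and 9 rose and 5 fell in knockout, with medians of 0.31 and 0.54. Their summed level was 559 to 573 CPM in wild type and 590 to 669 CPM in knockout at day 0, and 1313 to 1465 CPM and 1415 to 1460 CPM at day 7. The largest rises in wild type were those of Msx1, a homeobox gene of many embryonic tissues, from 0.637 ± 0.367 to 321 ± 28.6 CPM, and of the simple epithelial keratin Krt19, from 1.46 ± 0.26 to 176 ± 16.2 CPM. The largest falls were those of Krt17, from 24.7 ± 4.35 to 0.299 ± 0.301 CPM, and of the epidermal factor Grhl1, from 5.61 ± 0.40 to 0.214 ± 0.234 CPM. Trp63, the defining factor of stratified epithelium, did not pass the filter and held 8, 15, 18 and 33 reads in wild type day 0, knockout day 0, wild type day 7 and knockout day 7. The basal keratin Krt5 held 0, 0, 3 and 8 reads in the same order. Krt14, another basal keratin of the list, was called higher in both genotypes (edgeR adjusted p = 0.0354 in wild type and 0.0385 in knockout). Each of these calls was lost in 8 of 13 alternatives.

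Markers of other cell types that express some of the 6 genes moved over the same 7 days. In bulk RNA, more cells of a type and more RNA per cell cannot be told apart. Of 13 tested genes of amnion and extraembryonic mesoderm 12 rose and 0 fell in each genotype, and their summed level was 535 to 701 CPM in wild type and 568 to 646 CPM in knockout at day 0, and 3390 to 3674 CPM and 3346 to 3434 CPM at day 7. Postn went from 3 reads to 16490 and Foxf1, a mesoderm factor, from 8 to 19856 in wild type, the largest rises of that list. Of 14 blood and endothelial genes 9 rose and 1 fell in wild type and 10 rose and 1 fell in knockout, with sums of 68.8 to 71.8 CPM in wild type and 85.3 to 95.2 CPM in knockout at day 0, and 324 to 375 CPM and 316 to 360 CPM at day 7. The largest rises were those of the embryonic globin Hba-x (0 reads at day 0 and 1886 at day 7 in wild type) and of the endothelial factor Fli1 (0 and 1065 reads), and Cd34 fell. In that list Tek and Pecam1 were called higher in knockout at day 0 (edgeR adjusted p = 0.0313 and 0.0431). These calls were lost in 6 and 10 of 12 alternatives, with an adjusted p of 0.281 and 0.610 with only the libraries compared and of 0.108 for each with the replicate block. Leaving out 1 library also ended them, for Tek without replicate 1 or 2 of wild type (0.0721 and 0.0680) or replicate 1 of knockout (0.0540), and for Pecam1 without any one of the 6 libraries (0.0566 to 0.127). Of 12 tested neural crest genes 9 rose and 2 fell in each genotype, with sums of 117 to 154 CPM in wild type and 118 to 142 CPM in knockout at day 0, and 205 to 238 CPM and 189 to 210 CPM at day 7. In wild type Sox9 and Ets1 were the largest rises there and Foxd3, which ES cells also express, and Erbb3 the largest falls. The 9 that rose were not all the same, with Tfap2b called only in wild type and Pax7 only in knockout. The Sox10 calls were lost in 9 of 13 alternatives in wild type and 8 of 13 in knockout, and the Pax7 call in 7 of 12.

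Of 10 primordial germ cell genes 0 rose in either genotype while 8 fell in wild type and 7 in knockout, with sums of 158 to 173 CPM in wild type and 158 to 186 CPM in knockout at day 0, and 32.9 to 40.1 CPM and 44.95 to 46.4 CPM at day 7. The largest falls were those of Dazl (494 reads to 0 in wild type) and Stra8 (746 reads to 4). Of 10 fibroblast genes taken as feeder cell markers 9 rose and 1 fell in each genotype. Their sum was 24.4 to 32.4 CPM in wild type and 32.1 to 34.7 CPM in knockout at day 0, when Col3a1 and Dcn had 0 reads in both genotypes. At day 7 it was 1442 to 1641 CPM and 1177 to 1220 CPM. Col3a1 and Postn, which the amnion list also holds, rose most, and Thy1 fell. The part of these cell types in the levels of Gata2, Gata3, Tead4, Tfap2a and Tfap2c was not tested.

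The reads of each gene were then assigned to annotated transcripts, which differ in start site or splicing and whose counts are estimates of the authors' tool. Of 13 transcripts of the 6 genes that passed the filter, edgeR called 3 higher in wild type over 7 days and 4 in knockout, and 0 lower. Among all 45908 transcripts tested, 12.3% were called higher and 10.5% lower in wild type, and 10.6% higher and 10.4% lower in knockout. Gata3-201, which starts at the window printed above, took 89.1% to 100% of the Gata3 reads in every library, and its log2 rise was 3.36 in each genotype (SE 0.25). Gata2-201, which starts at 88198334, took 74.6% to 99.5% of Gata2 reads. It rose by 1.93 in wild type (SE 0.36) and 2.16 in knockout (SE 0.36) on the log2 scale. Gata2-202, from the upstream start whose CG-rich window is printed above, held 28 reads in 1 wild type library of day 7, 1 read in 1 of day 0, and 0 in the other 10.

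**Figure D4:**
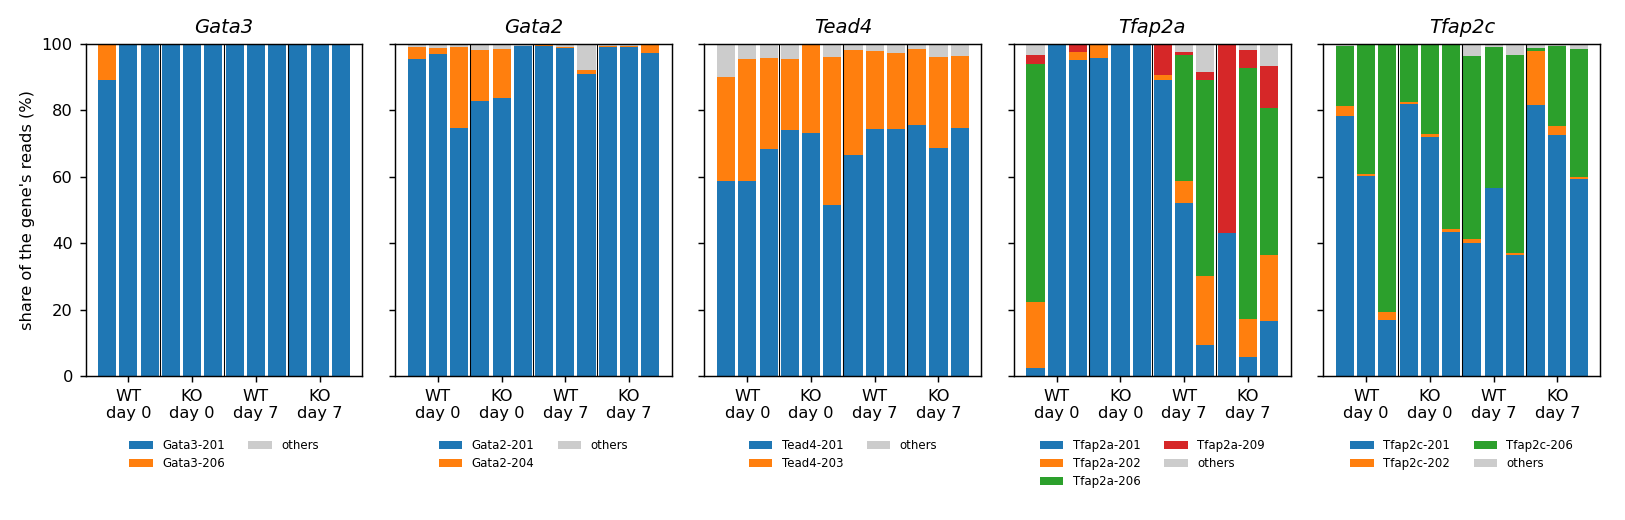
Share (%) of each gene's reads assigned to its annotated transcripts, 1 bar per library and 3 libraries per group. Gata3 and Gata2 were each carried mainly by 1 transcript, Tead4 mainly by 2, and the shares of Tfap2a and Tfap2c transcripts differed widely between replicates.

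Tead4 was carried by Tead4-201 (51.7% to 75.5% of its reads) and Tead4-203, which starts further downstream (21.2% to 44.4%). Tead4-201 rose by 1.56 in wild type (SE 0.21) and 1.44 in knockout (SE 0.21) on the log2 scale, while Tead4-203 was not called in either (edgeR adjusted p = 0.0562 and 0.0976). The shares of the AP-2 genes were unstable between replicates. Tfap2a-201 took 2.56%, 100% and 95.2% of Tfap2a reads in the wild type libraries of day 0, and Tfap2c-201 took 78.4%, 60.2% and 17.0% of Tfap2c reads there. No transcript of Tfap2c was called, although the gene was. Tfap2a-209 was called higher in knockout (edgeR adjusted p = 0.0181), from 0 reads in each library of day 0 to 128, 14 and 21 at day 7, and the call was lost without knockout replicate 3 of day 0, where the total of called transcripts stayed at 4 because Tead4-203 was then called. Whether the change of Tfap2a-209 differed between genotypes was not tested. Between genotypes 0 transcripts of the 6 genes were called by edgeR at day 0 and at day 7, with 0 and 1 at an unadjusted p under 0.05, where 0.0501% and 0.00871% of all transcripts were called.

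The hybrid cross allowed reads to be assigned to genome 1 or genome 2. Which strain is genome 1 is not given in the sources used here. Over all genes 27.0% to 27.99% of the allele-resolved reads of each library were from genome 2. Gata3 reads were mostly from genome 1 at day 0 and from both genomes at day 7, a difference that did not pass the test across genes (edgeR adjusted p = 0.182 in wild type and 0.0574 in knockout). In wild type 0, 14 and 7 of 47, 100 and 67 allele-resolved reads were from genome 2 at day 0, or 0%, 14% and 10.4%. At day 7 the shares were 44.6%, 43.9% and 61.2%, of 756, 939 and 289 reads. In knockout they were 0%, 7.41% and 6.94% of 24, 27 and 72 reads at day 0 and 49.9%, 43.5% and 62.8% of 547, 324 and 401 reads at day 7.

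The highest day 0 share of Gata3 lay far below the lowest of day 7, and the exact binomial 95% intervals of the day 0 libraries, whose upper ends ran from 7.55% to 24.3%, did not reach those of day 7, whose lower ends ran from 38.0% to 57.9%. The change in the ratio of genome 2 to genome 1 was 3.46 on the log2 scale in wild type (SE 0.93) and 4.22 in knockout (SE 0.74). Neither passed the test across genes (edgeR with a library block, adjusted p = 0.182 and 0.0574, unadjusted p = 0.0103 and 0.00128), where 2.24% and 2.09% of tested genes were called. The tested genes include those with no genome 2 read, such as Tead4, which count in the adjustment and in these percentages. With 1 library left out the adjusted p ran from 0.114 to 0.408 in wild type and from 0.0859 to 0.19 in knockout. Reads from genome 1 rose as well, from 1.996 to 7.28 CPM in wild type and from 1.13 to 6.03 in knockout, beside 0.191 to 6.92 and 0.0654 to 6.66 for genome 2.

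**Figure D5:**
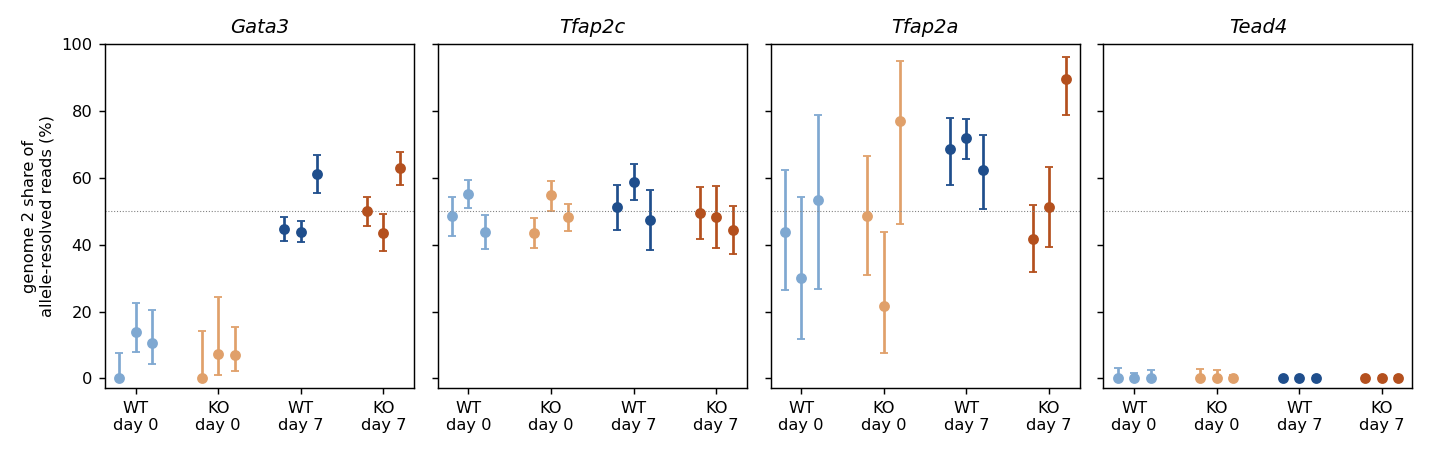
Genome 2 share (%) of allele-resolved reads in each library for Gata3, Tfap2c, Tfap2a and Tead4, with exact binomial 95% intervals (counting error only); the dotted line is at 50%. Gata3 lies at 0% to 14% at day 0 and at 43.5% to 62.8% at day 7, and all points of Tead4 lie at 0%.

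The other 4 genes with reads behaved differently. Tfap2c was read from both genomes throughout, with mean shares of genome 2 of 49.1% ± 5.70 and 48.7% ± 5.70 at day 0 in wild type and knockout and 52.4% ± 5.82 and 47.3% ± 2.70 at day 7. Tfap2a had few allele-resolved reads at day 0, 13 to 33 per library, and its shares were 43.8%, 30.0% and 53.3% in wild type and 48.5%, 21.7% and 76.9% in knockout. At day 7 they were 68.5%, 71.8% and 62.2% in wild type and 41.6%, 51.4% and 89.7% in knockout, so that the knockout libraries spanned more than the wild type ones. Tead4 had 0 genome 2 reads among 514, 603, 2656 and 1737 allele-resolved reads in wild type day 0, knockout day 0, wild type day 7 and knockout day 7. The upper ends of its exact 95% intervals ran from 0.266% to 3.05% over the libraries. Gata2 likewise had 0 genome 2 reads among 35, 22, 183 and 87 in the same order.

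Between genotypes, allelic balance could be tested for 2 genes at day 0 (Gata3 and Tfap2c) and for 3 at day 7 (with Tfap2a). None was called by edgeR, with 0 at an unadjusted p under 0.05. Tead4 and Gata2, with no genome 2 read, gave no test. Among all tested genes, those with no genome 2 read included, 0.00952% were called at day 0 and 0% at day 7. Genome 2 shares were also taken for genes near the members. Within 5 Mb of Tead4, 27 of 34 other genes (those with 20 or more reads of known allele in each library) had a genome 2 share under 1% over all libraries, and within 5 Mb of Gata2, 37 of 66 did. Nearer by, within 1 Mb, the count was 11 of 15 for Gata2 but 1 of 6 for Tead4, whose near neighbours had shares of 0.12% to 94.3%. Within 5 Mb the same held for 0 of 23 genes around Gata3, 1 of 27 around Tfap2c and 1 of 29 around Tfap2a, and within 1 Mb for none of 4, 7 and 5. On the whole of chromosome 6, which holds Gata2 and Tead4, 228 of 410 genes were under 1%. On chromosome 2, which holds Gata3 and Tfap2c, 225 of 734 were, and on chromosome 13, which holds Tfap2a, 7 of 351 were. Pooled over all libraries of both days, the genes within 5 Mb of Gata3 had shares of 24.1% to 67.4%. Their shares at day 0 alone were not computed, so the day 0 shares of Gata3 cannot be set against them.

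The genes whose centred log2 CPM profile over the 12 libraries was nearest to each member, by root mean square (RMS) distance, were named as a description. For Gata3 these were Mapkapk2 (distance 0.180), Jazf1, Stx2 and Rnf128, and for Tead4 they were Surf4 (0.0588), Tceal9, Smarce1 and Fbxw8. Gata2 was nearest to Rcn3 (0.186), Slc26a2, B4galnt1 and Galc, Tfap2a to Fzd3 (0.186), Rnf215, Uckl1 and Pcnx3, and Tfap2c to Gpc4 (0.114), Kit, Vbp1 and Rragb. Kit, a receptor of germ cells and blood progenitors, was called lower over 7 days in both genotypes. That fall already follows from its choice as a near profile of Tfap2c.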

How the data were processed

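Total polyA RNA of 12 libraries was measured by RNA-seq. Per the submitters' processing notes StringTie 1.3.3, HISAT2 2.1.0 and DESeq2 1.32.0 were among the tools named, with no order, beside SAMtools 0.1.19, Trimmomatic 0.36 and FastQC 0.11.3, and the builds were mm10 and GRCm38. Neither strand use in counting nor the annotation is given in the sources used. What the authors deposited were expected counts per gene and transcript, as StringTie estimates them, not normalized, and expected counts per gene split into genome 1, genome 2 and unassigned reads. Values were whole numbers and were used as deposited. Groups came from genotype and day in the labels; a treatment label (LIF or None), split alike on both days, was used only as a term in an alternative fit.

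Tests used R 4.3.3 and edgeR 4.0.16 (filterByExpr, TMM, quasi-likelihood, all 12 libraries in 1 fit, Benjamini-Hochberg over all genes, threshold 0.05), and DESeq2 1.42.0 as an alternative. The standard error (SE) is the log2 difference over the root of F. Allelic balance was tested with library as a block, for each gene with a minimum of 20 allele-resolved reads per library compared. TPM used transcript counts and GENCODE M21 lengths; 99.38% of gene identifiers matched that annotation. Medians of lists holding genes with no read in a group were also taken with those genes at a bound of 3 counts. In the lists whose medians are printed, this changed none of them. Both count tests were checked on simulated data. Promoter windows came from RefSeq, which had them for 4 of the 6 genes. Replicates of a group differed by more than sampling noise (chi-square per degree of freedom 22.4 to 54.9), so none was counted as a repeat. Intervals on counts cover counting error only.

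The 6 genes and the lists were chosen with earlier results of these data known. Named were the 6 genes, their families, the 2 largest rises and falls of each other list in wild type, list genes called between genotypes, the 4 nearest profiles of each gene, transcripts that passed the filter, and Sirt7. Yap1, Wwtr1, Ccn1, Ccn2, Trp63, Krt5, Krt14, Krt8, Peg10, Dcn, Gata2-202, the Elf5 transcripts, the cofactors and the placental genes at 0 were named after their values were seen. So were Syna, Psg17, Psg21, Gcm1, the other named genes of the Hippo pathway list and the list genes named for calls lost in alternatives.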

Additional observations from a re-analysis of the deposited data

How the results depend on the processing

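The 5 calls over 7 days in each genotype held under every alternative run (RLE scaling, no filter, only the libraries compared, replicate block, treatment label as a term, each library left out, DESeq2), with Gata3 between 3.12 and 3.35 in wild type and 3.21 and 3.55 in knockout (log2), and Tfap2a between 0.94 and 1.318 (adjusted p up to 0.0210) and 0.99 and 1.39. The count of members called between genotypes and for the interaction stayed at 0 throughout. Small values changed sign without a library. The day 7 difference of Tfap2a between genotypes ran from -0.369 to 0.00625 over all alternatives, the latter without knockout replicate 3. The interaction ran from -0.087 to 0.336 for Tfap2a, from -0.00093 to 0.434 for Gata2 and from -0.034 to 0.295 for Gata3. Some calls counted in the lists over 7 days were lost in alternatives. Among them were Phlda2 (10 of 13), Esrp1 (7 of 13) and Wwox (5 of 13) in wild type and Vgll1 (6 of 12) in each genotype. In knockout they included Kctd15 (4 of 13), Mob1a (4 of 13) and Stk3 (2 of 13).

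Counts over all genes moved more. At day 0, 25 genes were called between genotypes, against 0 with only the libraries compared, 6 with the replicate block, 10 with the treatment term, 330 with DESeq2 and 20 to 55 with 1 library left out (55 without knockout replicate 2 of day 0). At day 7, 5 were called, against 9 with only the libraries compared, 2 with the replicate block, 133 with DESeq2 and 6 to 13 with 1 library left out. For the interaction 5 were called, against 8 with no filter, 0 with the replicate block, 0 with a replicate block within genotype, 129 with DESeq2 and 0 to 15 with 1 library left out. Same-numbered libraries did not deviate together (correlations -0.0841 to 0.0613), so numbers were not taken as pairs. The cause of these shifts was not tested.

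Leaving out libraries in the transcript and allele tests was added after seeing the data. Called transcripts stayed at 3 or 4 in wild type (4, with Tfap2c-201, without replicate 3 of day 0) and at 4 in knockout, and allelic balance of members at 0, with the Gata3 change between 2.81 and 4.13 in wild type and 3.78 and 4.63 in knockout. With the union of exons as length, TPM moved beyond 1 SD for 8 values (Tfap2a 3.44 in knockout at day 7; Tfap2c 21.9 and 9.96, Gata2 1.73, Gata3 28.4 and Tead4 7.37 in wild type; Gata2 6.85 and Gata3 28.2 in knockout at day 7). Depth limits Elf5 and the day 0 allele shares of Gata3, Tfap2a and Gata2.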
